A study of Mus musculus with 8 samples.

Results

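Globin and erythroid genes were followed through RNA sequencing of mouse neutrophils. They were the adult beta-globin genes Hbb-bs and Hbb-bt, the adult alpha-globin genes Hba-a1 and Hba-a2, and Alas2. These are 5 of the 49315 gene identifiers in the count tables, and they were chosen by their measured counts, because globin genes had the steepest fall in low-density libraries. The question put to them was whether they mark red cells in the dense fraction. Because the contrast between densities chose the members, their values in it are given as a description, without a test. Tests are given for the comparison of genotypes and for the other genes of red cell, haem and haemoglobin biology. Between genotypes at low density the values of the members had also entered their choice, so those p-values are a description.

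Haemoglobin is a tetramer of alpha-globin and beta-globin chains, each holding a haem group, and it makes up most of the protein of a red cell. Developing red cells transcribe the globin genes and Alas2, the erythroid enzyme of the first step of haem synthesis, at very high levels, and young red cells keep globin mRNA for a time after they have lost the nucleus. Neutrophils are not a cell type known for haemoglobin, although every cell makes haem through the ubiquitous first enzyme, encoded by Alas1.

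The cells came from C57BL/6 mice, an inbred strain, aged 2 months. All groups received casein, which elicits neutrophils in the peritoneum, and the harvested cells were split by density into low density and high density neutrophils. The mice were wildtype or H2R deficient, that is, deficient in the histamine H2 receptor encoded by Hrh2. Each of the 4 combinations of genotype and density had 2 libraries, numbered 2 and 4 in wild type and 1 and 2 in H2R deficient. The labels do not say how the receptor was removed, in which cells, or whether the libraries came from separate or pooled animals, so p-values cover the spread among these particular libraries, and that spread may be technical.

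Library totals ranged from 19862716 to 24199215 counts, so that a floor of 3 counts lay at 0.124 to 0.151 counts scaled to a library total of 1e6 (CPM). Such a floor, like the intervals below, covers counting error only. Hrh2 had 2003 and 700 counts in the high-density and 556 and 830 in the low-density wild-type libraries. The libraries labelled H2R deficient had 599 and 275 counts at high density and 435 and 215 at low density. The log2 fold change was −1.60 ± 0.55 at high density and −1.48 ± 0.55 at low density (± SE), neither called by edgeR (adjusted p = 0.192 and 0.196). Which part of the gene the deficiency removes is not given, so these counts are no full check of the labels. At high density summed markers of neutrophils stood at 46800 to 47400 CPM in wild type and 50600 to 50700 CPM in H2R deficient. At low density they stood at 36300 to 46700 CPM and 25600 to 34700 CPM. Between densities edgeR called 1 of 12 markers lower at low density in wild type (4.15% of all genes). In H2R deficient it called 9 of 12 lower (23.9% of all genes).

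The members lie on 3 chromosomes (GRCm38, coordinates as in the files). Hbb-bs (ENSMUSG00000052305) is at chr7:103826534-103828096 and Hbb-bt (ENSMUSG00000073940) at chr7:103812524-103813996, both on the minus strand. Hba-a1 (ENSMUSG00000069919) is at chr11:32283511-32284465 and Hba-a2 (ENSMUSG00000069917) at chr11:32296489-32297298, both on the plus strand. Alas2 (ENSMUSG00000025270) is at chrX:150547375-150570638 on the plus strand. All are protein-coding, and their counts are summed over exons of 768, 703, 812, 667 and 2403 bases in the order named.

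The sequence just upstream of 3 of them is shown as a description. Each window is the 120 bases before the RefSeq start site (GRCm38.p6), read 5′ to 3′ on the gene's strand; RefSeq is the source, and GENCODE M21 has transcript models that start further upstream for some of these genes. Capitals mark any of 4 short motifs on either strand. The first is TATAA, the core of the box near many start sites, which reads TTATA on the reverse strand. The second is CCAAT with its reverse ATTGG, the third is CACCC with its reverse GGGTG, read by factors of the KLF family, and the fourth is GATAA with its reverse TTATC, read by GATA factors.
Hbb-bs, chr7:103827929-103828048, minus strand: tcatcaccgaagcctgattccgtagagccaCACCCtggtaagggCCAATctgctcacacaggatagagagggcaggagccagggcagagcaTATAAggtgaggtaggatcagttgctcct
Hba-a2, chr11:32296372-32296491, plus strand: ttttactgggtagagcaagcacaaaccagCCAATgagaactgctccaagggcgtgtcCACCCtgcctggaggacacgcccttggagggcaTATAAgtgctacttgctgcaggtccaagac
Alas2, chrX:150547297-150547416, plus strand: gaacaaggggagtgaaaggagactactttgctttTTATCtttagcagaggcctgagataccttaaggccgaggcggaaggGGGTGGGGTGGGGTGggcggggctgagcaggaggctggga

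The first 3 motifs all occurred in the window of each of the 4 globin genes. Of 32851 RefSeq promoters, 226 (0.688%) held these 3 motifs together in a window of that length. The 4 globin windows are not independent cases. Aligned, those of Hba-a1 and Hba-a2 were 95.1% identical and those of Hbb-bs and Hbb-bt 74.6%. Singly, the first motif was in 11.8% of such windows, the second in 21.3%, the third in 31.7% and the fourth in 10.5%. In Hbb-bs the first motif began 29 bases before the start, the second 76 and the third 90 bases before it. In Hba-a2 they began 30, 91 and 63 bases before the start, so the second and the third are exchanged in order between the beta and the alpha gene. The Alas2 window held the third motif 3 times on the reverse strand, beginning 40, 35 and 30 bases before the start in 1 unbroken stretch of capitals. It also held the fourth on the reverse strand, beginning 86 bases before the start, and neither of the other 2. A match is a description of the sequence and not a bound site.

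The copies of each globin chain can hardly be told apart by short reads. The coding sequences of Hbb-bs and Hbb-bt differed in 1 of 444 bases (99.8% identity), and those of Hba-a1 and Hba-a2 in 1 of 429 bases (99.8%). Of all 50-base stretches in their transcripts, 53.2% for Hbb-bs, 58.3% for Hbb-bt, 72.3% for Hba-a1 and 89.3% for Hba-a2 also occurred in the partner copy. The sources used here do not give how reads mapping to several places were counted, so the split of counts within each pair is uncertain. The sum of a pair is firmer than either copy. If such reads were dropped, the sums would have lost counts too, and the alpha pair, with more shared stretches, more than the beta pair. Levels and shares compared across alpha, beta and Alas2 below carry that limit. Alas2 shared 11.5% of its 50-base stretches with other genes, mostly with Apex2, a DNA repair gene that overlaps it on the opposite strand. The strand setting of the counting is not given, and Apex2 had 11 to 30 counts at high density against 35 to 84 at low density.

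The 5 genes together were abundant enough to measure in every high-density library and close to the counting floor in every low-density one. Their summed level was 48.8 and 183 CPM in the high-density wild-type libraries 2 and 4, and 50.5 and 21.6 CPM in the high-density H2R-deficient libraries 1 and 2. At low density it was 0.604 and 1.66 CPM in wild type and 0.165 and 0.57 CPM in H2R deficient. All low-density values lay below all high-density values in both genotypes, which is the property the genes were chosen for. By group mean the order was wild type at high density, H2R deficient at high density, wild type at low density, H2R deficient at low density. The first 2 groups in that order overlapped. In these bulk libraries fewer cells of a type and less RNA per cell cannot be told apart.

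**Figure D1:**
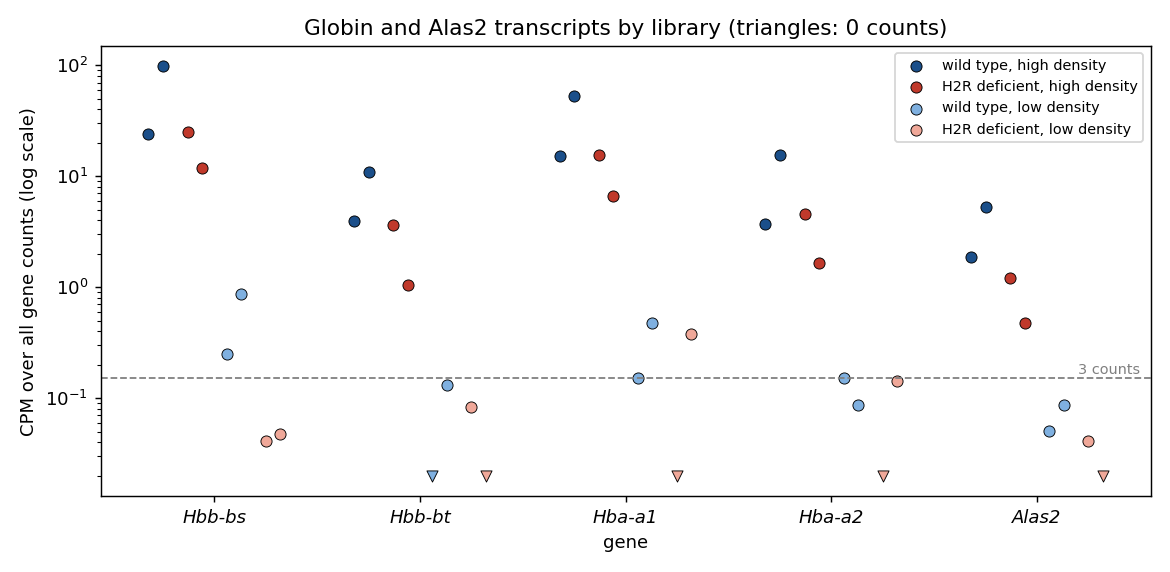
CPM over all gene counts on a log axis for each of the 5 genes, 1 point per library, coloured by genotype and density; triangles at the foot are libraries with 0 counts and the dashed line is the highest level that 3 counts stand for, 0.151 CPM. For every gene the 4 high-density libraries lie above the 4 low-density ones, and wild-type library 4 is the highest high-density library.

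Hbb-bs, the major adult beta-globin copy in these data, had 522 and 2052 counts (23.9 and 97.8 CPM) in the high-density wild-type libraries 2 and 4, and 562 and 249 counts (25.3 and 11.8 CPM) in the high-density H2R-deficient libraries 1 and 2. At low density it had 5 and 20 counts in wild type and 1 and 1 in H2R deficient. The 2 high-density groups overlapped, and wild-type library 4 stood 4.09-fold above wild-type library 2. Over pooled libraries, high density exceeded low density 103-fold in wild type (95% interval from counts 69.6 to 159) and 424-fold in H2R deficient (117 to 3500), the latter on 2 low-density counts and on the uncertain split with Hbb-bt.

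Hbb-bt, the second adult beta-globin copy, had 86 and 229 counts (3.94 and 10.9 CPM) in wild type and 80 and 22 (3.61 and 1.04 CPM) in H2R deficient at high density. Its low-density counts were 0 and 3 in wild type and 2 and 0 in H2R deficient. The high-density groups did not overlap in CPM, by a narrow margin between wild-type library 2 and H2R-deficient library 1. The low-density counts were at or under the floor in each library. The ratio of high to low density was 105 in wild type (35.6 to 512) and 53.3 in H2R deficient (14.4 to 446).

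Hba-a1 had 335 and 1112 counts (15.3 and 53.0 CPM) in wild type and 349 and 140 (15.7 and 6.63 CPM) in H2R deficient at high density, and 3 and 11 counts in wild type and 0 and 8 in H2R deficient at low density. Groups overlapped between genotypes in both populations. The ratio of high to low density was 103 in wild type (61.4 to 189) and 63.9 in H2R deficient (32.2 to 149).

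Hba-a2, the partner alpha-globin copy, had 81 and 329 counts (3.71 and 15.7 CPM) in wild type and 102 and 35 (4.6 and 1.66 CPM) in H2R deficient at high density. At low density it had 3 and 2 counts in wild type and 0 and 3 in H2R deficient, all at or under the floor. The high-density groups overlapped. The ratio of high to low density was 82.0 in wild type (34.8 to 254) and 47.7 in H2R deficient (16.0 to 234).

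Alas2 had 41 and 112 counts (1.88 and 5.34 CPM) in wild type and 27 and 10 (1.22 and 0.473 CPM) in H2R deficient at high density. At low density it had 1 and 2 counts in wild type and 1 and 0 in H2R deficient, all under the floor. Both wild-type high-density libraries were above both H2R-deficient ones. The ratio of high to low density was 51.0 in wild type (17.1 to 250) and 38.7 in H2R deficient (6.52 to 1570).

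In the model fitted to all 14909 genes that passed the low-count filter, the log2 fold changes of low over high density in wild type were −7.24 ± 0.93 for Hbb-bs, −7.16 ± 1.07 for Hbb-bt, −7.23 ± 1.07 for Hba-a1, −6.85 ± 1.06 for Hba-a2 and −6.11 ± 0.85 for Alas2 (± SE). They took ranks 2, 4, 3, 5 and 6 from the lowest fold change. In H2R deficient the values were −9.38 ± 1.24, −6.40 ± 1.14, −6.80 ± 1.14, −6.28 ± 1.15 and −5.74 ± 1.02, with ranks 1, 4, 3, 5 and 7. All 5 members passed the filter, and they did so through the high-density libraries. Of all genes tested, 198 (1.33%) had all 4 low-density libraries below all 4 high-density ones in CPM. Without wild-type library 4 at high density the wild-type values became −5.94, −6.29, −6.12, −5.51 and −5.22.

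These fitted values rest on few low-density counts, and single copies move more than pairs. With the copies of each pair summed, the log2 fold change was −7.25 for the beta pair and −7.16 for the alpha pair in wild type, and −8.67 and −6.70 in H2R deficient. The gap between Hbb-bs and Hbb-bt in H2R deficient therefore depends on the uncertain split within the pair. Without the low-density wild-type library 4, Hbb-bs, Hbb-bt and Hba-a1 became −8.49, −10.69 and −8.37, and without library 2 they became −6.59, −6.24 and −6.61. Without the low-density H2R-deficient library 1, Hbb-bt, Hba-a1, Hba-a2 and Alas2 became −8.99, −5.66, −5.19 and −7.54, and without library 2 they became −5.64, −11.33, −9.49 and −5.06. The values of −10.69, −8.99, −11.33, −9.49 and −7.54 arise where the library left has 0 counts, and they are no bound on the change.

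Per length of transcript the order of the genes was nearly fixed at high density. In RPKM, which divides CPM by the exon length in kilobases, the wild-type means were 79.0 ± 67.8 for Hbb-bs, 42.0 ± 32.7 for Hba-a1, 14.5 ± 12.7 for Hba-a2, 10.6 ± 7.0 for Hbb-bt and 1.5 ± 1.02 for Alas2 (SD, n = 2). In H2R deficient they were 24.1 ± 12.5, 13.8 ± 7.95, 4.68 ± 3.12, 3.30 ± 2.58 and 0.352 ± 0.218. Within each library Hbb-bs was above Hba-a1, and Alas2 was lowest. The order across genes also depends on the handling of multi-mapping reads, which is not given. Hba-a2 and Hbb-bt stood close together in wild-type library 2, at 5.56 and 5.60 RPKM, and Hba-a2 was the higher in the other 3 high-density libraries. Means ± SD of neighbours in this order overlapped within each group except for Hbb-bt and Alas2, whereas the order within single libraries changed only for Hba-a2 and Hbb-bt.

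The mix of globin transcripts was nearly the same in the 4 high-density libraries while their amount differed by 8.47-fold. The alpha share of the counts of the 4 globin genes was 40.6% (Wilson 95% interval 37.7 to 43.7) and 38.7% (37.2 to 40.3) in wild-type libraries 2 and 4. It was 41.3% (38.4 to 44.2) and 39.2% (34.8 to 43.8) in H2R-deficient libraries 1 and 2. The lowest and highest share thus differed 1.07-fold, and per length the range was 38.3 to 40.8%. The level of this share depends on the handling of multi-mapping reads, which is not given. Wild-type library 4, with the most globin, had the lowest share, and its interval overlapped that of each other library.

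Within the beta pair, Hbb-bs made up 85.9% (82.9 to 88.4) and 90.0% (88.7 to 91.1) of counts in wild type and 87.5% (84.8 to 89.9) and 91.9% (88.0 to 94.6) in H2R deficient. Within the alpha pair, Hba-a1 made up 80.5% (76.5 to 84.0), 77.2% (74.9 to 79.3), 77.4% (73.3 to 81.0) and 80.0% (73.5 to 85.3) in the same order of libraries. Alas2 was 3.85% (2.85 to 5.18) and 2.92% (2.43 to 3.50) of the counts of the 5 genes in wild type and 2.41% (1.66 to 3.48) and 2.19% (1.20 to 3.99) in H2R deficient. The Alas2 share varied 1.76-fold, more than the shares among globins, and its intervals overlapped among all 4 libraries. The Hbb-bs share was lower in wild-type library 2 than in wild-type library 4, with intervals that did not overlap, and the Hba-a1 intervals overlapped among all 4.

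**Figure D2:**
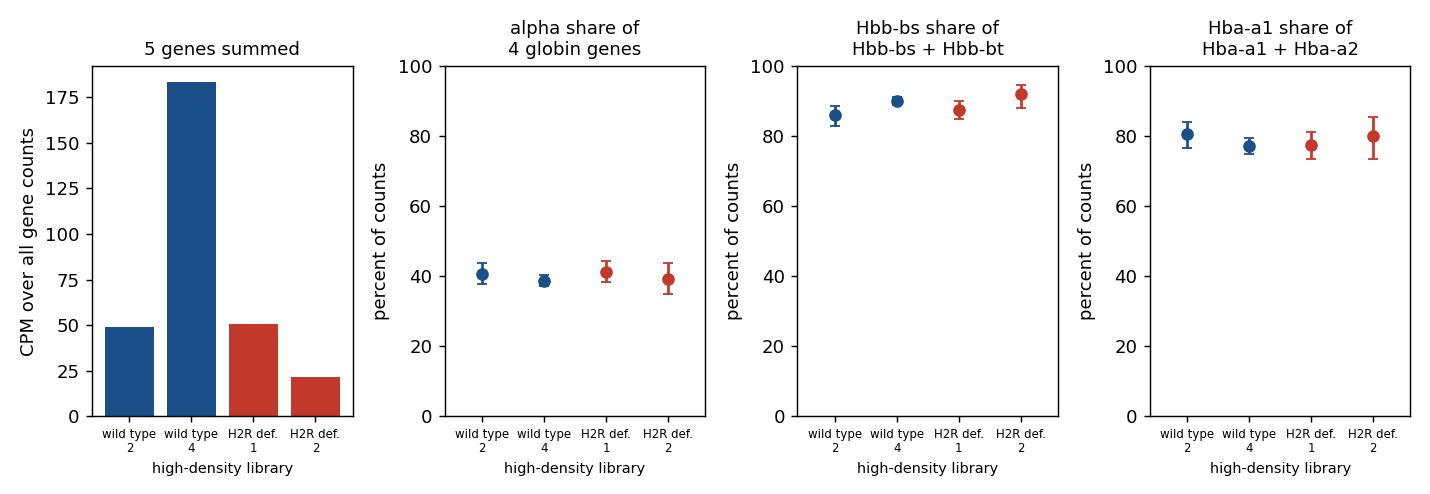
The 4 high-density libraries, wild type in blue and H2R deficient in red: summed level of the 5 genes in CPM (bars), then the alpha share of globin counts, the Hbb-bs share of the beta pair and the Hba-a1 share of the alpha pair in percent, with Wilson 95% intervals. The sum ranges from 21.6 to 183 CPM while the alpha share stays between 38.7 and 41.3%.

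At low density the mix could hardly be measured, and no test was made because denominators fell under 10 counts. Pooled over the 4 low-density libraries, 30 of 62 globin counts were alpha (48.4%, 36.4 to 60.6), an interval that includes the high-density values. By genotype the share was 40.4% (27.6 to 54.7) in wild type and 73.3% (48.0 to 89.1) over the 15 globin counts of H2R deficient, and the latter interval lies above the high-density values. H2R-deficient library 2 stood out with 11 alpha of 12 globin counts (91.7%, 64.6 to 98.5), a share chosen for mention after its value was seen.

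Comparing genotypes at high density asks whether the amount of globin and Alas2 transcript differs with the receptor, and this contrast did not choose the members. Each of the 5 genes had a lower mean in H2R-deficient libraries, and none of the differences passed the test. The log2 fold changes were −1.64 ± 0.67 for Hbb-bs, −1.60 ± 0.71 for Hbb-bt, −1.54 ± 0.75 for Hba-a1, −1.56 ± 0.73 for Hba-a2 and −2.01 ± 0.62 for Alas2 (± SE), against a median of −0.05 over all genes. Their edgeR quasi-likelihood p-values after Benjamini-Hochberg adjustment were 0.257, 0.273, 0.327, 0.301 and 0.152. None of the 5 was called, where 31 of 14909 genes were (0.208%), 28 of them lower (0.188%) and 3 higher (0.0201%).

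The libraries of the 2 genotypes did not overlap for Hbb-bt and Alas2, both lower in H2R deficient, as was the case for 29.2% of all genes in that direction and for 16.7% in the other. For Hbb-bs, Hba-a1 and Hba-a2 the H2R-deficient library 1 was above the wild-type library 2. The size of the difference rested on wild-type library 4. Without it the log2 fold changes were −0.34 for Hbb-bs, −0.73 for Hbb-bt, −0.43 for Hba-a1, −0.22 for Hba-a2 and −1.12 for Alas2. Without wild-type library 2 they were −2.31, −2.15, −2.16, −2.24 and −2.56. With every gene of at least 1 count kept in the fit, Hbb-bt (adjusted p = 0.00269) and Alas2 (adjusted p = 0.00465) were called by edgeR. That fit called 1095 genes in all, against 31 in the main fit, so the calls rose far beyond the members. Adjusted p-values of DESeq2 were 0.0529, 0.134, 0.576, 0.149 and 0.0774 and those of limma-voom 0.369, 0.274, 0.372, 0.434 and 0.201, in the order of the genes above.

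**Figure D3:**
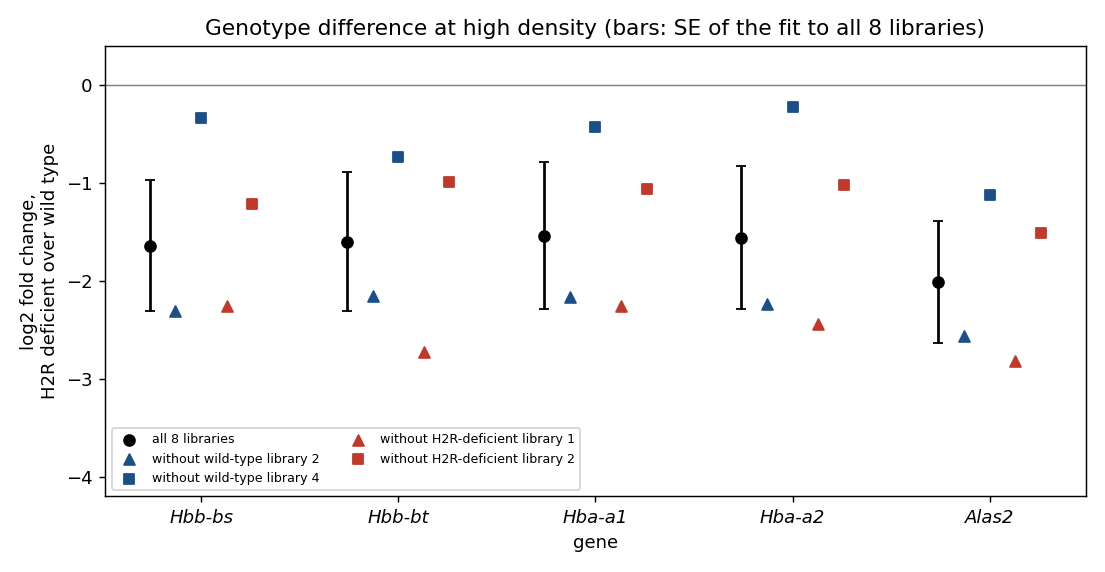
Log2 fold change of H2R deficient over wild type at high density for the 5 genes: black points with SE bars are the fit to all 8 libraries, coloured points the fit without 1 high-density library. Without wild-type library 4 the values shrink to between −0.22 and −1.12.

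At low density only Hbb-bs and Hba-a1 had a library above the floor in which a fold can be given. Hbb-bs had 25 counts over both wild-type and 2 over both H2R-deficient libraries, a ratio of 13.2 (3.29 to 115, counting error only). Its log2 fold change was −3.78 ± 1.80 with an edgeR adjusted p of 0.281, while DESeq2 gave an adjusted p of 0.0187. The low-density values entered the choice of the members, so p-values of members in this contrast are a description. Hba-a1 had 14 against 8 counts, a ratio of 1.85 (0.724 to 5.09), with an edgeR adjusted p of 0.744. Without the low-density wild-type library 4 the log2 fold change of Hbb-bs was −2.52, and with the copies of each pair summed it was −3.06 (adjusted p = 0.762 and 0.322). That of Hba-a1 ranged from −5.63 to 0.04 when 1 low-density library was left out. The value of −5.63 arises where the H2R-deficient library left has 0 counts, and it is no bound on the change. edgeR called 0 of the 5 members and 0 of the 14909 genes, of which 3128 had an unadjusted p under 0.05. DESeq2 called 870 genes, Hbb-bs among them, and limma-voom 8.

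Other defining red cell genes were set beside these genes, and they were at or near 0 in every library. Of 6 such markers (the membrane proteins Slc4a1, Epb42, Rhag and Ermap, the enzyme Car1 and the transcription factor Klf1), 4 never exceeded 3 counts, Car1 was at 0 throughout, and the highest single count was 7, for Epb42. Their sum was 0.183 and 0.476 CPM in wild type and 0.406 and 0.284 CPM in H2R deficient at high density, and 0.131 to 0.151 CPM and 0.0475 to 0.372 CPM at low density. None of the 6 passed the low-count filter. The globin chaperone Ahsp was not analysed here. The sums of these markers overlapped between the densities, unlike those of the globins and Alas2. Counts this low cannot tell missing red cells from red cell genes expressed below the floor. The label of the members as marks of red cells was therefore not tested.

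The globins of other stages and tissues were also at the floor. The embryonic genes Hbb-bh1, Hbb-y and Hba-x, the gene Hbb-bh2 and the theta genes Hbq1a and Hbq1b had 0 to 2 counts in each library. Of 9 other globins in the list, 1 passed the filter, the cytoplasmic globin Cygb of connective tissue cells. It had 0 to 2 counts in high-density libraries and was not called (2.15 ± 1.61 on the log2 scale with an edgeR adjusted p of 0.377 in wild type, 1.75 ± 1.62 and 0.379 in H2R deficient).

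Other genes of haem synthesis were split: some rose at low density, while Alas1 fell in H2R deficient. In low-density libraries Alad, which joins 2 molecules of the first product, had 52 and 50 counts in wild type and 207 and 136 in H2R deficient, and at high density it had 4 and 12 and 6 and 4. All low-density libraries were above all high-density ones, a separation whose share over all genes was not counted. It was higher at low density by 2.09 ± 0.47 in wild type (edgeR adjusted p = 0.0261) and by 4.09 ± 0.50 in H2R deficient (adjusted p = 0.000364). Uros, which closes the ring of the haem precursor, rose by 1.72 ± 0.39 (edgeR adjusted p = 0.0268) and 2.44 ± 0.39 (0.00108).

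Cpox, a later enzyme of the path, had 1.11 ± 0.34 in wild type (edgeR adjusted p = 0.0581) and rose by 2.49 ± 0.36 in H2R deficient (0.000675). Alas1, which encodes the first enzyme in cells other than red cells, had 6970 to 12515 counts at high density against 10 to 112 for Alas2. It fell at low density in H2R deficient (log2 fold change −1.48 ± 0.18, edgeR adjusted p = 0.000353) and was not called in wild type (−0.30 ± 0.17, 0.255). Scaled by total counts, Alas1 was −0.58 in H2R deficient and still called (adjusted p = 0.0178), and 0.28 in wild type.

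Of 11 tested genes of haem synthesis and mitochondrial iron import other than Alas2, 2 rose and 0 fell in wild type, with a median of −0.14 against 0.10 over all genes, where edgeR called 12.7% of genes (8.51% higher, 4.15% lower). In H2R deficient 5 rose and 3 fell, with a median of 0.72 against 0.10, where 54% of genes were called (30% higher, 23.9% lower). Scaling by total counts moved the median of all genes to 0.67 in wild type and 1.0 in H2R deficient, and the split to 3 higher and 0 lower and to 7 higher and 1 lower. That scaling called 4946 of 14909 genes in wild type and 8077 in H2R deficient, in either direction.

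**Figure D4:**
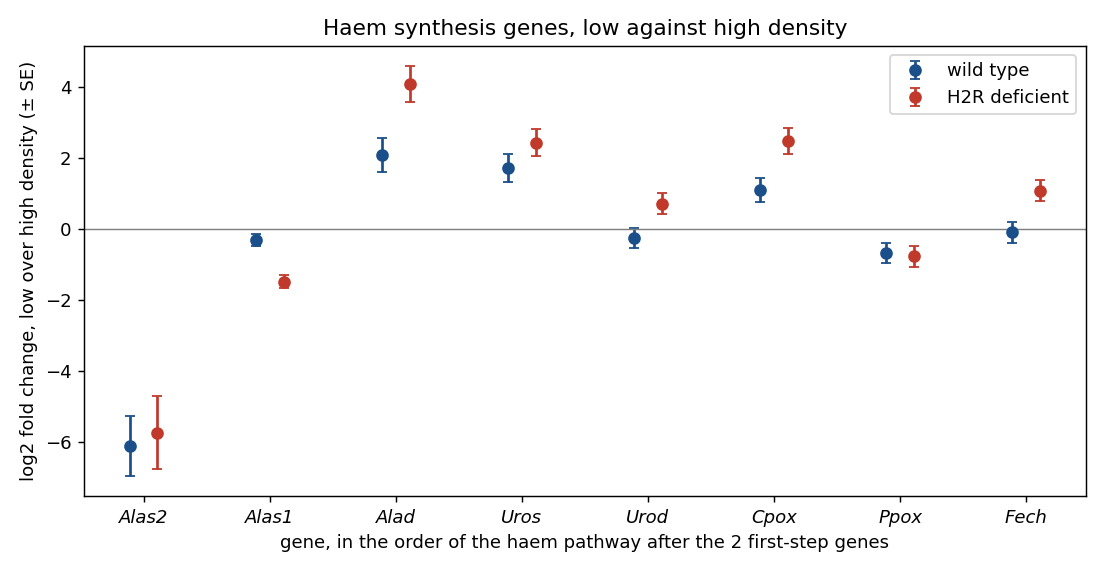
Log2 fold change of low over high density with its SE for 8 genes of haem synthesis, from the first-step genes Alas2 and Alas1 to Fech, in wild type (blue) and H2R deficient (red), TMM scaling. Alas2, chosen for its fall, lies at −6.11 and −5.74, while Alad, Uros and Cpox lie above 0 in both genotypes.

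Of 6 tested genes of the red cell membrane and skeleton, 2 rose at low density in both genotypes and 0 fell. Over all genes edgeR called 8.51% higher in wild type and 30% in H2R deficient, so the latter count is near that of all genes. Gypc, glycophorin C, rose by 1.86 ± 0.40 (edgeR adjusted p = 0.0238) and 3.15 ± 0.40 (0.000445), and Tspan33, a tetraspanin, by 3.04 ± 0.63 (0.0215) and 4.85 ± 0.74 (0.000874), in wild type and H2R deficient. Both genes are also expressed by lymphocytes. Summed B cell markers were 20.9 to 30.7 CPM in high-density and 125 to 795 CPM in low-density libraries. Their part in these rises, or in those of Alad, Uros and Cpox above, was not tested. The median of the list was 1.03 and 1.58 in the 2 genotypes, against 0.10 over all genes.

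Among 8 tested red cell enzymes and antioxidants, 1 rose in wild type and 4 in H2R deficient, and none fell. The shares of all genes called higher were 8.51% and 30%, and lower 4.15% and 23.9%. Prdx2, a peroxidase abundant in red cells, rose by 0.64 ± 0.18 in wild type (edgeR adjusted p = 0.0488, and 0.0527 without wild-type library 4) and by 1.83 ± 0.19 in H2R deficient (0.000228). Nxpe2, Car2 and Cat, the catalase gene, rose in H2R deficient by 3.84 ± 0.74, 1.30 ± 0.40 and 0.72 ± 0.22 (edgeR adjusted p = 0.00254, 0.0209 and 0.0219). The medians were 0.36 and 1.07, and with total counts 3 and 5 of the 8 rose. Of all 14909 genes, total counts called 4946 and 8077 in either direction.

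Erythroid transcription factors and receptors were split. In wild type 1 of 9 tested rose and 1 fell, and in H2R deficient 3 rose and 3 fell, with medians of −0.44 and −0.67. Of all genes, 8.51% were called higher and 4.15% lower in wild type, and 30% and 23.9% in H2R deficient. Bcl11a, known in red cells as a repressor of fetal-stage globins and in lymphocytes as a B cell factor, rose by 2.42 ± 0.28 (edgeR adjusted p = 0.00412) and 3.84 ± 0.30 (0.000177). Ldb1 and Zfpm1, cofactors of GATA1, rose in H2R deficient by 1.67 ± 0.23 and 2.29 ± 0.41 (edgeR adjusted p = 0.000588 and 0.00176). Nfe2, a factor of the globin locus control region, fell there (−1.75 ± 0.30, edgeR adjusted p = 0.00165, and −0.84 at 0.0328 with total counts). Lmo2 fell in wild type (−1.24 ± 0.32, edgeR adjusted p = 0.0396), a call that total-count scaling did not make (−0.67, 0.0997). With total counts 2 rose and 0 fell in wild type, and 4 rose and 1 fell in H2R deficient. Of all 14909 genes, that scaling called 4946 and 8077 in either direction.

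Genes of late red cell maturation and clearance were divided as well, with 0 of 12 higher and 1 lower in wild type and 5 higher and 5 lower in H2R deficient (medians −0.10 and −0.22; 2 lower in wild type without its high-density library 4). Beside these counts, 8.51% of all genes were called higher and 4.15% lower in wild type, and 30% and 23.9% in H2R deficient. Xpo7, a nuclear export receptor, and Tmcc2 rose in H2R deficient by 1.17 ± 0.23 and 2.05 ± 0.44 (edgeR adjusted p = 0.00254 and 0.00434). Isg20, an exonuclease, fell there (−1.80 ± 0.33, edgeR adjusted p = 0.00210, and −0.91 at 0.0181 with total counts). Ube2h, a ubiquitin-conjugating enzyme, fell in wild type (−0.92 ± 0.26, edgeR adjusted p = 0.0457) and H2R deficient (−1.14 ± 0.26, 0.00537), but was not called in either with total counts (−0.36 and −0.24). With total counts 4 rose and 0 fell in wild type, and 6 rose and 1 fell in H2R deficient. Of all 14909 genes, that scaling called 4946 and 8077 in either direction.

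Among genes that take up and break down haemoglobin and haem, the direction depended on the scaling. With TMM factors, in wild type 0 of 15 tested rose and 2 fell, and in H2R deficient 2 rose and 8 fell, with medians of −0.34 and −0.78. Without the high-density wild-type library 4, 1 fell in wild type. With TMM factors 8.51% of all genes were called higher and 4.15% lower in wild type, and 30% and 23.9% in H2R deficient. Bach1, the haem-sensing repressor, fell in H2R deficient (−1.48 ± 0.21, edgeR adjusted p = 0.000656, and −0.58 at 0.0238 with total counts). Nfe2l2, its activating counterpart, fell in both genotypes (−0.80 ± 0.20, edgeR adjusted p = 0.0348, and −1.35 ± 0.20, 0.000791), and the ferritin chains Ftl1 in wild type (−0.72 ± 0.20, 0.0492) and Fth1 in H2R deficient (−1.13 ± 0.21, 0.00227) fell too. With total counts neither Nfe2l2 nor a ferritin chain was called, and the split of the list was 2 higher and 0 lower in wild type and 5 higher and 1 lower in H2R deficient. Of all 14909 genes, that scaling called 4946 and 8077 in either direction.

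Lrp1, the receptor for haem bound to haemopexin, was the one gene of these pathway lists called between genotypes. It had 2084 and 1967 counts in wild type and 732 and 797 in H2R deficient at high density (95.4, 93.7, 33.0 and 37.7 CPM). Both wild-type libraries were above both H2R-deficient ones, as was the case for 29.2% of all genes. The log2 fold change was −1.35 ± 0.18 (edgeR adjusted p = 0.0374), and it was no longer called without wild-type library 4 (adjusted p = 0.0667). At low density Lrp1 rose in H2R deficient (1.14 ± 0.18, edgeR adjusted p = 0.000968).

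Markers of other cells and library properties moved with the globins in part. Summed platelet markers were 15.3 and 40.2 CPM in the high-density wild-type libraries 2 and 4, so library 4 was high in both; they were 12.2 and 16.4 CPM in the high-density H2R-deficient libraries 1 and 2. At low density they were 42.0 and 28.2 CPM and 22.4 and 30.0 CPM, where globins were near 0. None of the 5 tested platelet markers was called between densities. Summed eosinophil markers were 91.3 and 107 CPM in wild type and 29.0 and 33.3 CPM in H2R deficient at high density. Of 8 tested, 1 was called lower in H2R deficient, against 0.188% of all genes. Summed basophil and mast cell markers were 27.3 and 34.3 CPM in wild type and 44.6 and 31.9 CPM in H2R deficient there, with overlap. Their median log2 fold change was 1.3 over 6 tested markers, the reverse direction, and 0 were called. Summed macrophage markers were 496 and 408 CPM in wild type and 378 and 228 CPM in H2R deficient at high density. These sums did not overlap, and 29.2% of all single genes did not overlap in that direction. The median log2 fold change was −1.34 over 5 tested macrophage markers, with 0 of them called by edgeR. At low density the sums were 433 and 368 CPM and 411 and 287 CPM. At high density the sum was nearly all Adgre1 and Csf1r and was higher in wild-type library 2 than in library 4, unlike the globins. Timd4, Gata6 and Cd5l had at most 29 counts there, each highest in wild-type library 4. The mitochondrial share of counts was 0.159 to 0.341% at high density and 0.284 to 0.590% at low density. The part of any of these in the globin differences was not tested.

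The genes whose pattern over the 8 libraries was most like that of Hbb-bs were ranked by Pearson's r of log2 CPM (TMM, prior count of 2), as a description. The other members had r of 0.974 to 0.984. Outside them the highest were Marcksl1 (0.993), Clec4e (0.991), Hspa13 (0.989), Pde4b (0.987) and Rnf19b (0.986), then Tnfaip3, Map1lc3b, Mapkapk2, Slc10a3 and Cxcl2 (0.985 to 0.980). With Alas2 the highest was Slc45a4 (0.988), followed by Pde4b (0.974), Hspa13 (0.971), Tnfaip3 (0.970) and Cxcl2 (0.970). The points share the split by density, the library and its scaling factor, which was 0.742 to 0.808 at high density and 1.11 to 1.49 at low density. For each of the genes named here outside the members the unscaled counts overlapped between densities, unlike those of any member. Marcksl1 had 45781 to 60241 counts at high and 39741 to 53779 at low density, and Pde4b 9506 to 15566 and 8226 to 11749. For Hspa13 (1210 to 1578 and 1420 to 1861) and Slc45a4 (136 to 189 and 175 to 250) the low-density range reached higher.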

How the data were processed

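Per the file headers, the authors deposited 1 featureCounts table a library, holding unnormalized counts of reads for each gene. STAR 2.5.2b, Subread 1.5.2 (which holds featureCounts), Trimmomatic 0.36 and GRCm38 are named, per the submitters' processing notes. The sources used here give neither the strand setting, the handling of multi-mapping reads nor the annotation release.

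The 5 members were matched by identifier to symbols of GENCODE M21, which named 49056 of 49315 identifiers. All coordinates of the members equalled that annotation. The members and gene lists were chosen with earlier results of these data known. Some genes of the lists are not reported here, and counts and sums over lists leave them out. Of each list, the genes that passed a test are named, and beyond 4 the 4 with the lowest adjusted p.

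A quasi-likelihood model with robust dispersion (edgeR 4.0.16, R 4.3.3) was fitted to all 8 libraries with 1 mean per group, filterByExpr and TMM scaling, leaving 14909 genes and 4 residual degrees of freedom. Benjamini-Hochberg adjustment ran over all of them, and an adjusted p under 0.05 was called. No exact test of 2 against 2 libraries can go below 0.333. The test was also run on simulated counts with far fewer changed genes than were called between densities. Its accuracy on the present data is not inferred from that run. CPM are over all gene counts, and RPKM divide them by exon length. Intervals of shares are Wilson 95% intervals and those of count ratios exact conditional ones (scipy 1.17.1). Alternatives were RLE and total-count scaling, no filter, DESeq2 1.42.0, limma-voom 3.58.1, non-robust dispersion, the 2 groups alone, summed copies, a replicate block and leaving out each library. Libraries of a group differed by far more than sampling noise (chi-square 33.7 to 53.5 per degree of freedom).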

Additional observations from a re-analysis of the deposited data

How the results depend on the processing

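No member was called between genotypes at high density under any alternative but the fit without a low-count filter, which called 2 members. At low density DESeq2 called 1 member, Hbb-bs (log2 fold change −3.98), on values that had also entered the choice of the members. The value of Hba-a1 at low density turned to 0.03 without H2R-deficient library 1 and 0.04 without wild-type library 4. It was −5.63 without H2R-deficient library 2, where the library left has 0 counts. Fewer samples entered those fits. Counts of called genes moved more. Between genotypes at high density 31 genes became 73 with total counts, 1095 without the filter, 677 with DESeq2, 3 with limma-voom and 0 with the 2 groups alone, and 0 to 40 without 1 library. Between genotypes at low density 0 genes became 1360 without the filter, 870 with DESeq2 and 8 with limma-voom, and 0 to 121 without 1 library. For the difference of density effects, not used for the members because their low-density values chose them, 0 genes by edgeR (3150 at an unadjusted p under 0.05, 0 by limma-voom) became 635, 1210 and 946 with total counts, no filter and DESeq2, and 0 to 3 without 1 library. For density in wild type 1888 genes became 4946 with total counts, 3361 without the filter and 608 with the 2 groups alone, and 123 to 1724 without 1 library; in H2R deficient 8044 genes ranged from 5394 to 8341. The lowest counts came without H2R-deficient library 2 or low-density wild-type library 4 for genotype at high density, and without high-density wild-type library 2 for density in wild type, and the highest at low density without low-density wild-type library 2. The cause was not tested. Deviations of same-numbered libraries of a genotype correlated at r = 0.155 in wild type and 0.326 in H2R deficient over 14909 genes. With 2 pairs a genotype and no label on shared animals, whether the numbers pair the libraries is not known, and they were treated as unpaired. With a replicate block 2621 genes were called for density in wild type, 8450 in H2R deficient and 28 for the difference. No paired analysis was possible between genotypes because they share only the number 2. Summed per group, the 5 members had mean levels of 116, 1.13, 36.0 and 0.367 CPM in wild type at high and low density and H2R deficient at high and low density. Depth limits every low-density value of Hbb-bt, Hba-a2 and Alas2, which had at most 3 counts per library.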
